A study of Mus musculus with 9 samples.

Results

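The Dlk1 to Dio3 domain is an imprinted stretch of mouse chromosome 12, and its chromatin accessibility was followed across 9 libraries of embryonic stem cells. Its members were the counted regions in or within 50 kb of the RefSeq spans of Dlk1, Rtl1 or Dio3, together with every region between Dlk1 and Dio3 (chr12:109402485-110331097, mm10). They numbered 72 of the 157497 regions counted. Of these, 13 lay in or within 50 kb of Dlk1, 22 of Rtl1 and 7 of Dio3. The domain was proposed with results of these data in view, so its counts in every library, its fold changes and its calls are given as a description and no p-value is printed for a region.

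ATAC-seq uses a transposase that inserts adapters where chromatin is open, and it was run on 3 groups of 3 libraries, labelled NanogKO:Esrrb:Nanog, NanogKO:Esrrb and NanogKO. Going by the labels, NanogKO cells lacked Nanog, NanogKO:Esrrb cells carried added Esrrb on that knockout, and NanogKO:Esrrb:Nanog cells carried added Esrrb and Nanog. NANOG and ESRRB are transcription factors that sustain self-renewal, and the design asks what each added factor did to accessibility. All cells were grown in serum with LIF, received no treatment, and were sorted as positive for PECAM, a surface protein of undifferentiated cells, and negative for PDGFRA, a primitive endoderm marker. The labels name the NanogKO line N{delta} and give both other groups the shared line name N{delta}:cE:iN. The sample titles also give each group a code of its own, 44JN for NanogKO:Esrrb:Nanog, 44J for NanogKO:Esrrb and 44C6 for NanogKO, whose meaning is not stated. Genotype and cell line therefore cannot be told apart in the comparisons with NanogKO. Between the groups with Esrrb, the line name is shared but the codes differ, so whether they are the same line is not known. How the added factors were driven, and whether a line was a single clone, is not given in the labels used here. Nothing in the labels says that replicates were separate cultures, so the spread between libraries may be technical.

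Library totals ran from 35545030 to 58520948 counts, and the median domain region had 44.5 to 131.5 counts per library. The sole counted region in the Nanog span had 4.25 to 6.17 CPM (counts scaled to library size with TMM factors) in NanogKO:Esrrb:Nanog libraries, 3.02 to 4.02 CPM in NanogKO:Esrrb libraries and 0.902 to 1.56 CPM in NanogKO libraries. It was called higher than in NanogKO in both groups with Esrrb, also in NanogKO:Esrrb, which by its label has no Nanog added back, and was not called between those groups. Which stretch of Nanog was deleted is not stated, so this region does not check the labels. The 30 regions in the Esrrb span summed to 359 to 384, 217 to 247 and 149 to 172 CPM in the same order of groups, and 22 of them were called higher in NanogKO:Esrrb:Nanog than in NanogKO:Esrrb, though both labels add Esrrb. Accessibility within 1 kb of the starts of 6 of 8 stem cell markers was 32.0 to 37.4, 30.3 to 33.9 and 23.0 to 25.5 CPM per kb in that order. Regions at 2 of 6 primitive endoderm markers had 16.9 to 18.1, 14.8 to 17.1 and 18.9 to 19.3 CPM per kb, those at 3 of 7 fibroblast markers 12.3 to 14.1, 11.4 to 12.5 and 13.5 to 14.7, and those at 5 neural markers 18.7 to 22.6, 15.5 to 18.0 and 17.4 to 19.4. The fibroblast marker Prrx1 had no counted region at its start, the other markers left out had no start in the RefSeq table, and the part of these differences in the results was not tested.

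In an imprinted domain, each gene is read mainly from the chromosome of a given parent. Dlk1 encodes a membrane protein related to the NOTCH ligands, Rtl1 a protein derived from a retrotransposon that the placenta requires, and Dio3 an enzyme that inactivates thyroid hormone, and all are expressed mainly from the paternal chromosome. The noncoding RNAs Meg3, Rian and Mirg, with a large cluster of miRNAs and snoRNAs, come from the maternal chromosome. A differentially methylated stretch between Dlk1 and Meg3 governs both sets, and expression of the maternal RNAs is known to vary between mouse pluripotent stem cell lines. The annotation used here gives no position for that methylated stretch, the reads were not split by parent, and neither RNA nor methylation was measured. In such bulk samples, fewer cells with an open site and less opening per cell or per chromosome cannot be told apart.

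The promoters of Dlk1, Meg3 and Dio3, each with a counted region over its start, are shown. Of these regions, that at Meg3 was called lower against NanogKO, and those at Dlk1 and Dio3 were not called. Each is read from RefSeq sequence of GRCm38.p6, the assembly of mm10, with capitals for the bases inside a counted region. The Dlk1 and Dio3 sequences are the 250 bases before the start (chr12:109452573-109452822 and chr12:110278980-110279229, plus strand), and the Meg3 sequence runs from 250 bases before its start to 50 after it (chr12:109540746-109541045, plus strand).
Dlk1 promoter: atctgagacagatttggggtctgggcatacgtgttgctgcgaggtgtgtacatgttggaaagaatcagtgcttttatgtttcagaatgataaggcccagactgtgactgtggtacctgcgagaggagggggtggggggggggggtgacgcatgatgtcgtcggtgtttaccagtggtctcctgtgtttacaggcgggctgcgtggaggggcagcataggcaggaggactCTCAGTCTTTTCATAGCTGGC
Meg3 promoter: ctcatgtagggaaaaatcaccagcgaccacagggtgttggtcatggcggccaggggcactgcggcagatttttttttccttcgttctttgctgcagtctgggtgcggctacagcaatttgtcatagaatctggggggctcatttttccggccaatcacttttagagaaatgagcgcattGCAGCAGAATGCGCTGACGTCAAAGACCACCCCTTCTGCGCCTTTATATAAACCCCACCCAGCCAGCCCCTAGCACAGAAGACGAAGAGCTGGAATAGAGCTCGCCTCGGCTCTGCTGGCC
Dio3 promoter: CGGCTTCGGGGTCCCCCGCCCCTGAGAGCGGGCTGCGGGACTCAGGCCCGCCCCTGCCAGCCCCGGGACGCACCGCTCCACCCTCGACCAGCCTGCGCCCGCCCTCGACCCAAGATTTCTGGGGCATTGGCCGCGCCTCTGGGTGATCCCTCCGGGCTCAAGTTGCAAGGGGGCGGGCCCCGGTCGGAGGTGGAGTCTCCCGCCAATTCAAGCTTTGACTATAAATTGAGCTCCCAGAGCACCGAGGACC
The Meg3 window was searched on both strands, together with the windows of the other domain genes, for a few fixed motifs. It holds the cAMP response element TGACGTCA, first base 57 bases before the start, inside the region that was less accessible in both groups with Esrrb. Of 32851 promoter windows of the same length, 1.79% hold that motif. A TATA box (TATAAA) begins 25 bases before the start on the same strand, and another lies on the opposite strand and overlaps it. TATAAA also begins 31 bases before the Dio3 start, and 13.6% of all windows hold it. The motif TGCCGC, read by the methylation-dependent protein ZFP57, stands in the Meg3 window on the opposite strand, outside the counted region, and occurs in 11.6% of windows. An ESRRB motif (TNAAGGTCA, in 1.28% of windows) was found in the window of a second, downstream Meg3 start, which no counted region covers, and the octamer ATTTGCAT (1.74% of windows) was in none of the 29 windows of the 17 domain genes with a RefSeq promoter. Such matches describe the letters only. In the Dio3 sequence 69.6% of bases are G or C with 21 CpG pairs, against 54.8% and 8 in the Dlk1 sequence and 53.7% and 13 in the Meg3 window.

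Against NanogKO, both groups with added Esrrb had lost accessibility over much of the domain, and the loss was not even along it. In NanogKO:Esrrb:Nanog cells 43 of the 72 regions were called lower and 10 higher than in NanogKO cells, where 24.4% of all tested regions were called lower and 24.9% higher. In NanogKO:Esrrb cells 38 were called lower and 10 higher than in NanogKO cells, where 17.0% and 20% of all regions were. A call here is a Benjamini-Hochberg adjusted p under 0.05 in edgeR's quasi-likelihood test over all 157439 regions tested, and all 72 members were tested. Without NanogKO replicate 2 the higher calls of NanogKO:Esrrb fell to 6. The median log2 fold change over the domain was -0.55 in NanogKO:Esrrb:Nanog and -0.59 in NanogKO:Esrrb, beside -0.01 over all regions in each comparison. Libraries were lower without overlap at 42 and 40 members, where 27.8% and 25.7% of all regions were, and higher without overlap at 10 and 11 members, where 26.7% and 26.2% were. Falls of over 2-fold numbered 28 and 29, where 11.0% and 6.01% of all regions fell as far, and rises of over 2-fold 5 and 3, where 11.3% and 8.37% of all regions rose as far. These comparisons share the NanogKO libraries, so their likeness is not independent evidence. Selection also enters, because the counted regions are the merged peaks of a list that the authors deposited for each group. In the domain, 26 regions were in the NanogKO list alone (36.1%, where 10.2% of all regions were). They entered the counts, medians and sums only through a NanogKO peak. Another 8 were in the NanogKO:Esrrb:Nanog list alone, 2 in the NanogKO:Esrrb list alone and 7 in both of these only. Since the domain was chosen from such contrasts, nothing is read from these counts beside the shares over all regions.

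The summed domain held 320, 313 and 286 CPM in NanogKO:Esrrb:Nanog libraries, 294, 282 and 284 CPM in NanogKO:Esrrb libraries, and 384, 366 and 366 CPM in NanogKO libraries. Every library with Esrrb lay below every NanogKO library, while those of NanogKO:Esrrb:Nanog and NanogKO:Esrrb overlapped. The NanogKO:Esrrb:Nanog mean was 82.4% and the NanogKO:Esrrb mean 77.0% of the NanogKO mean.

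**Figure D1:**
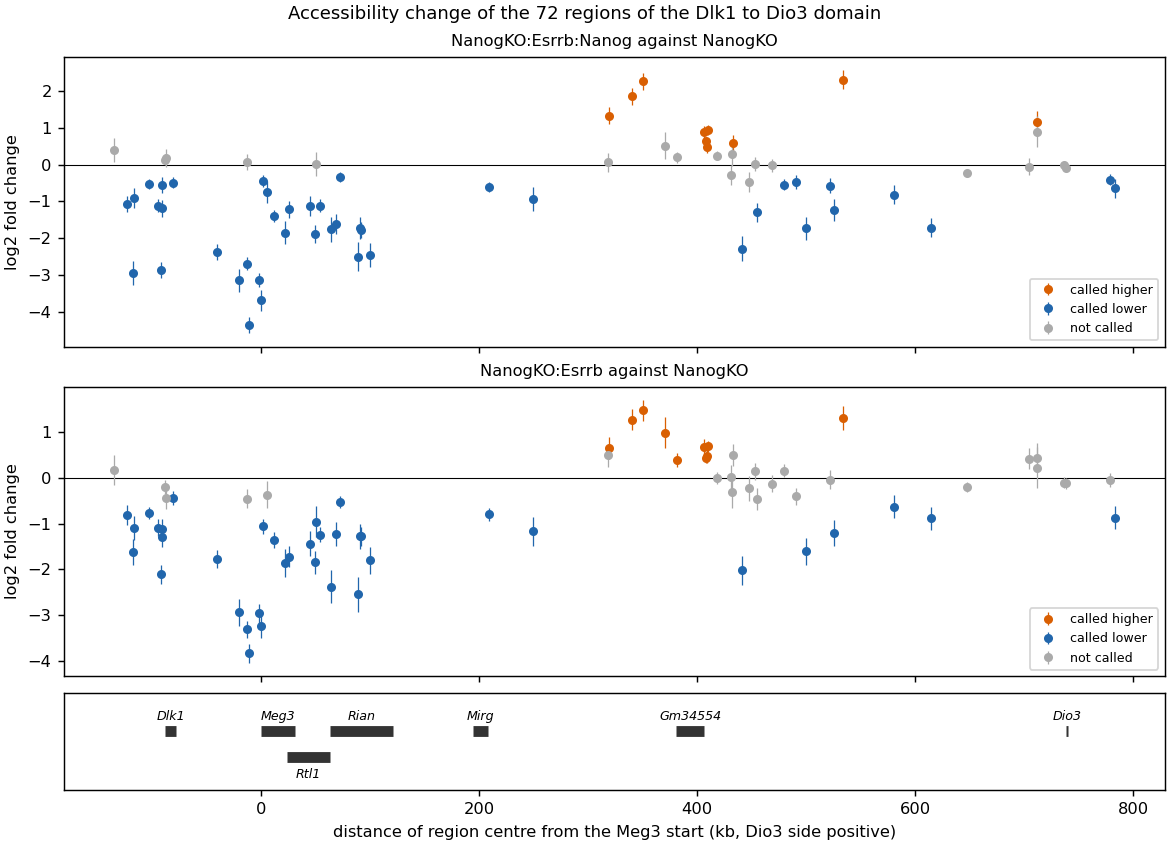
Log2 fold change with its standard error (y axis) of each of the 72 domain regions against the distance of its centre from the Meg3 start in kb (x axis), for NanogKO:Esrrb:Nanog (top) and NanogKO:Esrrb (middle) against NanogKO, with gene spans at the bottom. Up to 2 kb past Mirg, 31 of 36 regions were called lower and none higher in each comparison, and all 10 higher calls of each lay farther toward Dio3. Most of those 31 were in the NanogKO peak list alone and were counted only because of a NanogKO peak.

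The change split along the chromosome near the far end of Mirg, an approximate boundary set after the values were seen. The next member past it (chr12:109790299-109790412) was also called lower than NanogKO. Its values were -0.94 ± 0.32 in NanogKO:Esrrb:Nanog and -1.17 ± 0.32 in NanogKO:Esrrb. Up to 2 kb past Mirg, 31 of 36 regions were called lower and 0 higher in each comparison with NanogKO, with medians of -1.20 in NanogKO:Esrrb:Nanog and -1.28 in NanogKO:Esrrb. In the other 36 regions, toward Dio3, 12 were called lower and 10 higher in NanogKO:Esrrb:Nanog, and 7 lower and 10 higher in NanogKO:Esrrb. The lower share was 86.1% up to 2 kb past Mirg in each comparison. Most regions called lower there were in the NanogKO list alone, so they were counted only because of a NanogKO peak. In the rest of the domain, 33.3% were lower and 27.8% higher in NanogKO:Esrrb:Nanog, and 19.4% and 27.8% in NanogKO:Esrrb. Beyond the domain, in 1 Mb on the Dlk1 side, 35 of 128 regions were called lower and 25 higher in NanogKO:Esrrb:Nanog, and 20 lower and 17 higher in NanogKO:Esrrb. In 1 Mb on the Dio3 side, 26 of 188 regions were called lower and 61 higher in NanogKO:Esrrb:Nanog, and 14 lower and 56 higher in NanogKO:Esrrb.

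**Figure D2:**
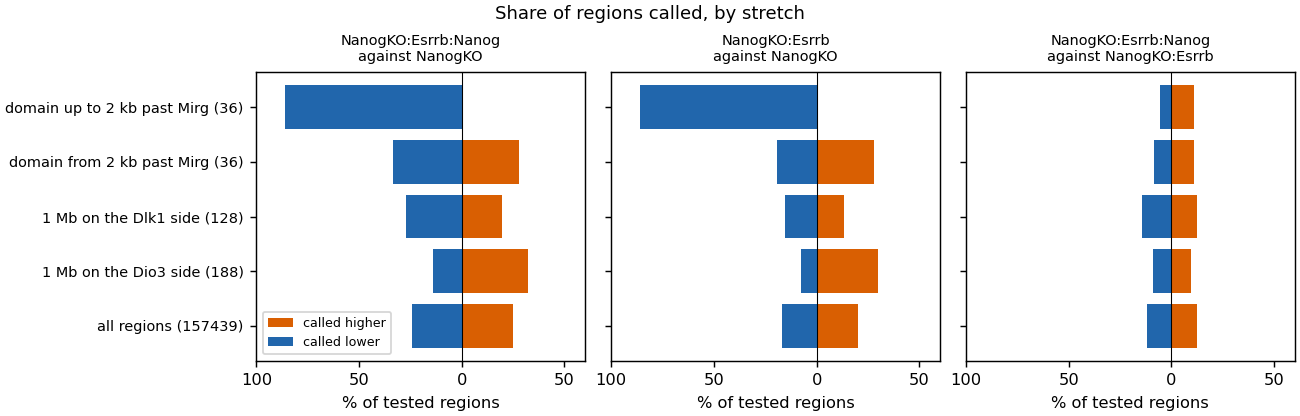
Percent of tested regions (x axis) called higher (right of 0) and lower (left of 0) in each of 3 comparisons, for both stretches of the domain, for 1 Mb on each side and for all regions, with the number tested in brackets. The stretch up to 2 kb past Mirg had 86.1% of its regions called lower in both comparisons with NanogKO, and 5.56% lower and 11.1% higher in NanogKO:Esrrb:Nanog against NanogKO:Esrrb.

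At the limits of the window, the outermost member on the Dlk1 side (chr12:109406233-109406325) differed from NanogKO by 0.41 in NanogKO:Esrrb:Nanog and 0.17 in NanogKO:Esrrb on the log2 scale. Just outside, chr12:109401105-109401424 differed by -0.44 and -0.52. The outermost member on the Dio3 side (chr12:110323831-110323975) differed by -0.64 and -0.87, and the next region outside (chr12:110349697-110350590) by -0.90 and -0.43.

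At the start of Dlk1 (gene 13386, chr12:109452485-109463336) accessibility of the region over the start was not called different in any comparison, while 8 of 9 regions before the gene were called lower. The region over the Dlk1 start (chr12:109452802-109453333) had 9.70, 8.83 and 6.17 CPM in NanogKO:Esrrb:Nanog libraries, 6.38, 6.21 and 6.84 CPM in NanogKO:Esrrb libraries, and 7.24, 7.66 and 7.46 CPM in NanogKO libraries. NanogKO:Esrrb:Nanog libraries spread on both sides of the NanogKO ones, and all NanogKO:Esrrb libraries lay just under them. Log2 fold changes of this region against NanogKO were 0.14 ± 0.15 (standard error, as for every log2 fold change here) in NanogKO:Esrrb:Nanog and -0.20 ± 0.15 in NanogKO:Esrrb. A second region near the start (chr12:109453518-109453675) had means of 1.91 ± 0.636, 1.22 ± 0.218 and 1.65 ± 0.0641 CPM (SD, n = 3) in NanogKO:Esrrb:Nanog, NanogKO:Esrrb and NanogKO. It was not called in any comparison, but with the replicate block it was called higher in NanogKO:Esrrb:Nanog than in NanogKO:Esrrb, at 0.61 beside 0.63 ± 0.25. The other region in the gene (chr12:109459476-109460253) was called lower against NanogKO, at -0.49 ± 0.15 in NanogKO:Esrrb:Nanog and -0.44 ± 0.15 in NanogKO:Esrrb.

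Before Dlk1, the 9 regions summed to 18.5, 20.9 and 18.1 CPM in NanogKO:Esrrb:Nanog libraries, 18.3, 17.0 and 20 CPM in NanogKO:Esrrb libraries, and 40.9, 39.4 and 38.0 CPM in NanogKO libraries. Both groups with Esrrb lay near the same level, without overlap with NanogKO. The sharpest fall among them in NanogKO:Esrrb:Nanog, in a region 28910 bp before the gene (chr12:109423372-109423575), left 0.166, 0.117 and 0.225 CPM in NanogKO:Esrrb:Nanog libraries and 0.437, 0.385 and 0.522 CPM in NanogKO:Esrrb libraries, against 1.27, 1.38 and 1.48 CPM in NanogKO libraries. All 3 groups were apart there, with log2 fold changes against NanogKO of -2.95 ± 0.33 in NanogKO:Esrrb:Nanog and -1.62 ± 0.28 in NanogKO:Esrrb. Closer to the gene, at chr12:109448423-109449031, means were 1.13 ± 0.338 CPM in NanogKO:Esrrb:Nanog, 1.93 ± 0.476 CPM in NanogKO:Esrrb and 8.33 ± 0.33 CPM in NanogKO (SD, n = 3). The means were 13.6% and 23.2% of the NanogKO mean in NanogKO:Esrrb:Nanog and NanogKO:Esrrb.

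The stretch between Dlk1 and Meg3, which in mice holds the methylated control element, lost the largest share of its accessibility among the 6 stretches into which the annotation divides the domain. Its 6 regions summed to 7.55, 6.78 and 7.25 CPM in NanogKO:Esrrb:Nanog libraries, 7.67, 7.44 and 6.35 CPM in NanogKO:Esrrb libraries, and 49.5, 46.0 and 45.3 CPM in NanogKO libraries. NanogKO:Esrrb:Nanog held 15.3% and NanogKO:Esrrb 15.2% of the NanogKO mean. In each comparison with NanogKO 5 of the 6 regions were called lower. Most of the 6 were in the NanogKO list alone and so were counted only because of a NanogKO peak. How far this selection sets the rank of the stretch was not tested.

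**Figure D3:**
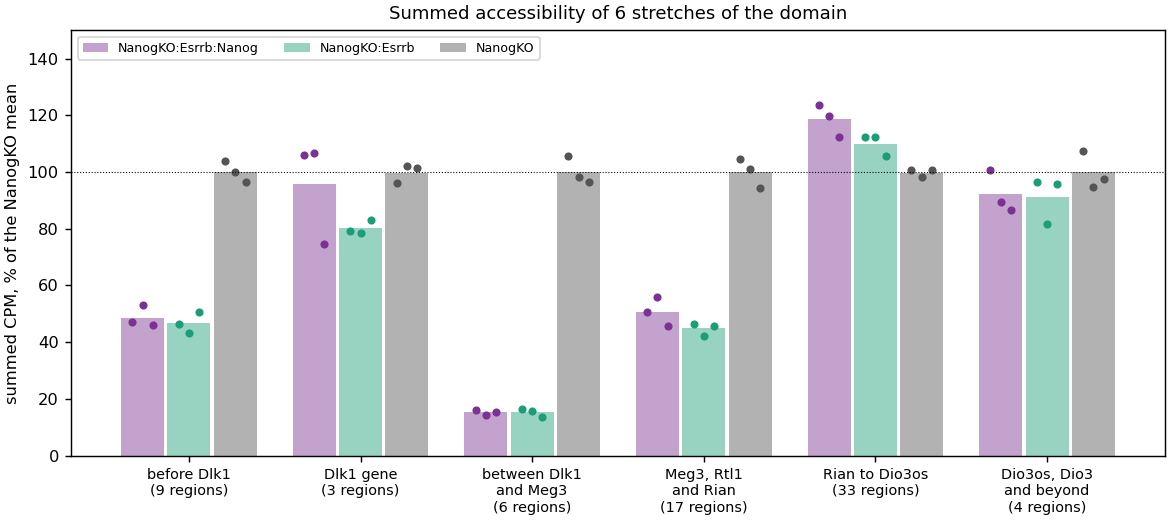
Summed accessibility of the regions in each of 6 stretches of the domain (x axis, from the Dlk1 side to the Dio3 side) as a percent of the NanogKO mean (y axis), with bars for the mean of 3 libraries and points for single libraries. Between Dlk1 and Meg3 both groups with Esrrb stood at about 15% of NanogKO, and most regions there were in the NanogKO peak list alone. From Rian to Dio3os they stood at 119% (NanogKO:Esrrb:Nanog) and 111% (NanogKO:Esrrb). Without 2 of the 33 regions there, picked for their rise, the values were 99.6% and 97.8%.

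The largest change of the domain was 11.5 kb before the Meg3 start, within the noncoding gene Gm34081 (chr12:109529082-109529948). There the region had 0.456, 0.998 and 0.761 CPM in NanogKO:Esrrb:Nanog libraries, 1.45, 0.871 and 0.852 CPM in NanogKO:Esrrb libraries, and 16.3, 15.4 and 13.2 CPM in NanogKO libraries. Every NanogKO library stood far above all 6 others. The log2 fold change was -4.37 ± 0.22 in NanogKO:Esrrb:Nanog and -3.83 ± 0.21 in NanogKO:Esrrb, and 98 and 61 of the 157439 regions had lower ones in those comparisons.

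Its neighbours on either side did not move alike. At 13.4 kb before the Meg3 start, chr12:109527425-109527692 had 1.91, 1.35 and 1.49 CPM in NanogKO:Esrrb:Nanog libraries, 1.15, 1.04 and 0.922 CPM in NanogKO:Esrrb libraries, and 11.3, 10.3 and 9.26 CPM in NanogKO libraries. Its fold changes on the log2 scale were -2.69 ± 0.18 with Esrrb and Nanog and -3.31 ± 0.18 with Esrrb alone. Between these regions lay chr12:109528236-109528485, with 2.55, 2.2 and 1.76 CPM in NanogKO:Esrrb:Nanog libraries, 1.57, 1.59 and 1.34 CPM in NanogKO:Esrrb libraries, and 2.27, 1.80 and 2.13 CPM in NanogKO libraries. It was not called against NanogKO, at 0.07 ± 0.21 in NanogKO:Esrrb:Nanog and -0.46 ± 0.21 in NanogKO:Esrrb, and the level of all 3 groups there was low. Toward Meg3, 1.9 kb before its start, chr12:109538837-109539395 had 1.24 ± 0.364, 1.43 ± 0.339 and 11.2 ± 0.787 CPM (SD, n = 3) in NanogKO:Esrrb:Nanog, NanogKO:Esrrb and NanogKO. Its log2 fold changes were -3.14 ± 0.20 and -2.96 ± 0.20. On the Dlk1 side, 20.5 kb before the Meg3 start, chr12:109520415-109520662 fell by a like amount, with -3.15 ± 0.32 in NanogKO:Esrrb:Nanog and -2.94 ± 0.30 in NanogKO:Esrrb, and chr12:109499857-109500621 by -2.37 ± 0.21 and -1.78 ± 0.20.

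At Meg3 (gene 17263, chr12:109540996-109571729), the maternally expressed noncoding RNA, the region over the first start was close to lost. This region (chr12:109540925-109541194) covers 121 bases of the Meg3 promoter window, those in capitals in its sequence. It had 0.207, 0.323 and 0.208 CPM in NanogKO:Esrrb:Nanog libraries, 0.258, 0.352 and 0.365 CPM in NanogKO:Esrrb libraries, and 3.17, 3.40 and 2.72 CPM in NanogKO libraries. No library with Esrrb came near the NanogKO ones, and the libraries of the groups with Esrrb overlapped each other. Log2 fold changes were -3.69 ± 0.29 in NanogKO:Esrrb:Nanog and -3.23 ± 0.27 in NanogKO:Esrrb, which left 7.94% and 10.5% of the NanogKO mean.

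Within the Meg3 span the loss was smaller than at its first start. Among the 13 regions in Meg3 or within 20 kb of it, 11 were called lower in each comparison with NanogKO and log2 fold changes ran from -4.37 to 0.07 in NanogKO:Esrrb:Nanog and from -3.83 to -0.37 in NanogKO:Esrrb. The highest CPM among the 13 as a mean of all 9 libraries was at chr12:109542945-109543159, 2.1 kb into the gene, although in NanogKO alone the regions 11.5, 1.9 and 13.4 kb before the start had higher means. It had 5.06, 7.83 and 4.98 CPM in NanogKO:Esrrb:Nanog libraries, 3.90, 4.09 and 3.62 CPM in NanogKO:Esrrb libraries, and 8.54, 7.50 and 8.15 CPM in NanogKO libraries. The highest NanogKO:Esrrb:Nanog library overlapped NanogKO, and every NanogKO:Esrrb library lay under both other groups. Against NanogKO the log2 fold change was -0.45 ± 0.16 in NanogKO:Esrrb:Nanog and -1.06 ± 0.16 in NanogKO:Esrrb. The call in NanogKO:Esrrb:Nanog ended without NanogKO replicate 1 (-0.40), without NanogKO replicate 3 (-0.44), without NanogKO:Esrrb:Nanog replicate 1 (-0.35) and without its replicate 3 (-0.33). Next to the downstream Meg3 start, chr12:109546038-109546287 had 0.666 ± 0.273, 0.879 ± 0.0524 and 1.14 ± 0.333 CPM (SD, n = 3) in NanogKO:Esrrb:Nanog, NanogKO:Esrrb and NanogKO. It was called in NanogKO:Esrrb:Nanog at -0.73 ± 0.30, but not with DESeq2 (-0.73), in a fit of the 6 libraries alone (-0.73), without NanogKO replicate 1 (-0.76) or 3 (-0.47), or without NanogKO:Esrrb:Nanog replicate 2 (-0.47). Deeper in the gene, chr12:109553021-109553427 held 38.0% of the NanogKO mean in NanogKO:Esrrb:Nanog and 39.1% in NanogKO:Esrrb, and chr12:109562570-109562785 held 28.0% and 27.4%.

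**Figure D4:**
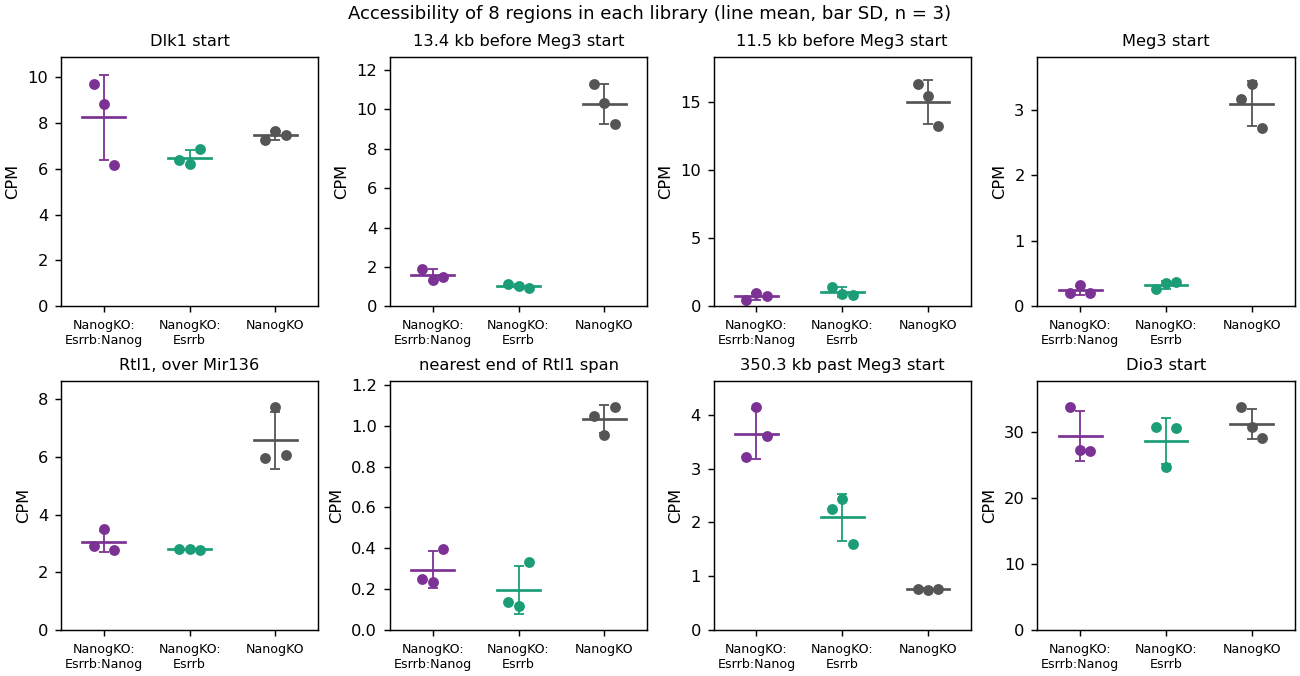
CPM in each library (points), with the group mean (line) and SD (bar, n = 3), of 8 domain regions in NanogKO:Esrrb:Nanog, NanogKO:Esrrb and NanogKO, each panel with its own y axis from 0. The groups overlap at the Dio3 start and lie close together at the Dlk1 start, NanogKO stands far above both others at 13.4 and 11.5 kb before Meg3 and at the Meg3 start, and it stands below them 350.3 kb past the Meg3 start.

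Rtl1 (gene 353326, chr12:109564900-109604418) overlaps the end of Meg3 and the start of Rian, and ATAC-seq reads carry no strand, so a region there belongs to no single gene. The 22 regions in or within 50 kb of Rtl1, which include Meg3 and the stretch before it, summed to 37.2, 39.2 and 33.1 CPM in NanogKO:Esrrb:Nanog libraries, 34.1, 31.0 and 32.1 CPM in NanogKO:Esrrb libraries, and 105, 102 and 95.7 CPM in NanogKO libraries. This was 36.2% of the NanogKO mean in NanogKO:Esrrb:Nanog and 32.1% in NanogKO:Esrrb. RefSeq gave no promoter for Rtl1. The counted region nearest to an end of its span lay at the Rian side (chr12:109605212-109605369), with 0.249, 0.235 and 0.398 CPM in NanogKO:Esrrb:Nanog libraries, 0.139, 0.117 and 0.331 CPM in NanogKO:Esrrb libraries, and 1.05, 0.955 and 1.09 CPM in NanogKO libraries. All libraries with Esrrb were lower than those of NanogKO, by -1.76 ± 0.35 in NanogKO:Esrrb:Nanog and -2.38 ± 0.36 in NanogKO:Esrrb. Without NanogKO:Esrrb replicate 3, its highest library, the NanogKO:Esrrb value was -2.99.

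Inside Rtl1 run several miRNAs that are transcribed against it from the maternal chromosome and that, in mice, guide cleavage of the Rtl1 RNA. RefSeq placed 58 miRNA hairpins with 113 named mature miRNAs in the domain, and 6 hairpins lay over a counted region. The mature miRNAs were diverse, with 104 seeds (bases 2 to 8), of which 9 were shared by a pair of names. Those shown lie in counted regions, with the seed in capitals, and Mir136 and Mir3071 lie on opposite strands of the same bases. Mir540, Mir431, Mir432 and Mir136 are on the plus strand and Mir3071 and Mir1247 on the minus strand, so not all those shown run against Rtl1.
mmu-miR-540-3p: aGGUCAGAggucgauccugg
mmu-miR-431-5p: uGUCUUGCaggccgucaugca
mmu-miR-432: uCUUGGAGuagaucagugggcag
mmu-miR-136-5p: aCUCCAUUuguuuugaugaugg
mmu-miR-3071-3p: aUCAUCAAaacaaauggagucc
mmu-miR-1247-5p: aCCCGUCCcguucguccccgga
The region over Mir136, Mir3071 and Mir432 (chr12:109594950-109595411) had 2.92, 3.49 and 2.78 CPM in NanogKO:Esrrb:Nanog libraries, 2.8, 2.81 and 2.78 CPM in NanogKO:Esrrb libraries, and 5.95, 7.72 and 6.08 CPM in NanogKO libraries. Both groups with Esrrb were at less than every NanogKO library, by -1.11 ± 0.17 in NanogKO:Esrrb:Nanog and -1.24 ± 0.17 in NanogKO:Esrrb. The region over Mir431 (chr12:109590300-109590797) differed by -1.89 ± 0.25 and -1.85 ± 0.24, and that over Mir540 (chr12:109585990-109586288) by -1.12 ± 0.27 and -1.44 ± 0.27. A short region beside Mir431 (chr12:109590965-109591045) was the exception, with 0.964 ± 0.414 CPM in NanogKO:Esrrb:Nanog, 0.492 ± 0.151 CPM in NanogKO:Esrrb and 0.959 ± 0.304 CPM in NanogKO (SD, n = 3). Its call in NanogKO:Esrrb against NanogKO, -0.96 ± 0.34, ended without NanogKO replicate 1 (-0.76) or 3 (-0.89) and without NanogKO:Esrrb replicate 2 (-0.74) or 3 (-0.98). Over Mir1247, which lies by Dio3os far from this cluster, no change was called.

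Rian, a maternally expressed RNA that hosts snoRNAs, and Mirg, which hosts miRNAs, had no counted region within 1 kb of their starts. In and around Meg3, Rtl1 and Rian together, 16 of 17 regions were called lower in each comparison with NanogKO, and their summed CPM was 30.6 ± 3.08 in NanogKO:Esrrb:Nanog, 27.1 ± 1.4 in NanogKO:Esrrb and 60.4 ± 3.11 in NanogKO (SD, n = 3). The most accessible of them, in Rian (chr12:109612447-109613323), changed least among those called in both, with 10.7 ± 0.977, 9.35 ± 0.469 and 13.6 ± 1.41 CPM in NanogKO:Esrrb:Nanog, NanogKO:Esrrb and NanogKO. The region just past Mirg (chr12:109749717-109750632) had 6.83 ± 0.996, 5.92 ± 0.109 and 10.3 ± 0.471 CPM in the same order, or 66.1% and 57.3% of the NanogKO mean.

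Farther toward Dio3 lie noncoding genes with no role stated here, and there several regions gained accessibility and others lost it. The 33 regions from Rian to Dio3os summed to 193, 187 and 175 CPM in NanogKO:Esrrb:Nanog libraries, 175, 175 and 165 CPM in NanogKO:Esrrb libraries, and 157, 153 and 157 CPM in NanogKO libraries. Every library with Esrrb exceeded every NanogKO library in this sum, but not once 2 regions just past Gm34554 were left out. Those regions, picked for their rise after the values were seen, summed to 75.9 ± 8.03 CPM in NanogKO:Esrrb:Nanog, 65.1 ± 5.84 CPM in NanogKO:Esrrb and 46.4 ± 1.46 CPM in NanogKO (SD, n = 3). The other 31 summed to 109 ± 2.12, 107 ± 1.08 and 109 ± 2.04 CPM in the same order, or 99.6% and 97.8% of the NanogKO mean. Rises and falls among these 31 offset each other in the sums. The median log2 fold change of the 33 was 0.03 in NanogKO:Esrrb:Nanog and 0.14 in NanogKO:Esrrb. In each comparison 10 of the 33 were called higher, and 11 were called lower in NanogKO:Esrrb:Nanog and 7 in NanogKO:Esrrb. These are 30.3% higher and 33.3% lower in NanogKO:Esrrb:Nanog, where 24.9% and 24.4% of all regions were. In NanogKO:Esrrb they are 30.3% and 21.2%, where 20% and 17.0% of all regions were. Rises of over 2-fold made up 15.2% and 9.09% of the 33, where 11.3% and 8.37% of all regions rose as far. Falls of over 2-fold made up 15.2% and 12.1%, where 11.0% and 6.01% of all regions fell as far.

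The member with the highest mean CPM of the domain, just past Gm34554 (chr12:109948007-109949377), had 64.5, 58.0 and 49.5 CPM in NanogKO:Esrrb:Nanog libraries, 54.9, 49.3 and 45 CPM in NanogKO:Esrrb libraries, and 38.4, 36.4 and 35.5 CPM in NanogKO libraries. Against NanogKO it was higher by 0.64 ± 0.12 in NanogKO:Esrrb:Nanog and 0.43 ± 0.12 in NanogKO:Esrrb. Its neighbours within 4 kb were called higher as well in both comparisons, and chr12:109950758-109951317 had 18.6 ± 0.675, 15.4 ± 2.39 and 9.63 ± 0.541 CPM in NanogKO:Esrrb:Nanog, NanogKO:Esrrb and NanogKO (SD, n = 3).

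Larger relative rises came from weaker regions. At 350.3 kb past the Meg3 start, chr12:109891230-109891456 had 3.21, 4.14 and 3.60 CPM in NanogKO:Esrrb:Nanog libraries, 2.25, 2.43 and 1.6 CPM in NanogKO:Esrrb libraries, and 0.756, 0.735 and 0.770 CPM in NanogKO libraries. The groups stood apart in 3 steps, with log2 fold changes of 2.27 ± 0.23 in NanogKO:Esrrb:Nanog and 1.47 ± 0.23 in NanogKO:Esrrb against NanogKO. In Gm34719, chr12:110075059-110075265 had 2.05, 2.14 and 2.46 CPM in NanogKO:Esrrb:Nanog libraries, 1.23, 1.19 and 0.887 CPM in NanogKO:Esrrb libraries, and 0.341, 0.478 and 0.507 CPM in NanogKO libraries, or 2.31 ± 0.26 and 1.3 ± 0.27 on the log2 scale. A further such region, chr12:109881110-109881457, differed by 1.86 ± 0.23 and 1.26 ± 0.23. Falls lay among these rises, such as chr12:109982107-109982361 at -2.28 ± 0.34 and -2.02 ± 0.32, and a region in 3110009F21Rik (chr12:110154812-110155510) at -1.71 ± 0.27 and -0.89 ± 0.25. For that last region the NanogKO:Esrrb:Nanog value was -2.35 without replicate 3 of that group, and the NanogKO:Esrrb call ended without NanogKO replicate 3 (-0.73). The regions of this paragraph were picked after their values were seen.

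At Dio3 (gene 107585, chr12:110279230-110281097) no difference in accessibility was called at the start in any comparison. The region over its start (chr12:110278629-110280385) had 33.7, 27.2 and 27.1 CPM in NanogKO:Esrrb:Nanog libraries, 30.7, 24.6 and 30.6 CPM in NanogKO:Esrrb libraries, and 33.7, 30.8 and 29.1 CPM in NanogKO libraries. Libraries of the 3 groups overlapped, with log2 fold changes against NanogKO of -0.09 ± 0.12 in NanogKO:Esrrb:Nanog and -0.12 ± 0.12 in NanogKO:Esrrb, neither called. The region over the start of Dio3os, a noncoding RNA read from the opposite strand, and over Mir1247 (chr12:110277289-110278203) had 15.2 ± 0.756, 14.1 ± 1.18 and 15.2 ± 1.55 CPM in NanogKO:Esrrb:Nanog, NanogKO:Esrrb and NanogKO (SD, n = 3), and was not called either. Summed over the 7 regions in or within 50 kb of Dio3, the groups had 53.4 ± 3.68, 52.8 ± 4.41 and 56.8 ± 3.60 CPM in that order. The same sum over 13 regions at Dlk1 was 34.7 ± 3.61, 32.2 ± 1.88 and 60.8 ± 1.63 CPM.

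Comparing both groups that carried Esrrb, few regions of the domain were called. In NanogKO:Esrrb:Nanog against NanogKO:Esrrb, 8 of the 72 regions were called higher and 5 lower, where 12.6% of all tested regions were called higher and 12.0% lower. Scaled to library totals without TMM factors, which gave all regions a median of -0.11 in place of -0.01, the domain had 3 higher and 8 lower calls and all regions together 12765 higher and 25391 lower calls in place of 19777 and 18935. The higher calls numbered 4 without NanogKO:Esrrb replicate 3 and 5 without NanogKO:Esrrb:Nanog replicate 1, and the lower calls 2 without NanogKO:Esrrb replicate 3 and 3 without NanogKO:Esrrb replicate 1 or NanogKO:Esrrb:Nanog replicate 1 or 2. The median log2 fold change over the domain was 0.00.

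**Figure D5:**
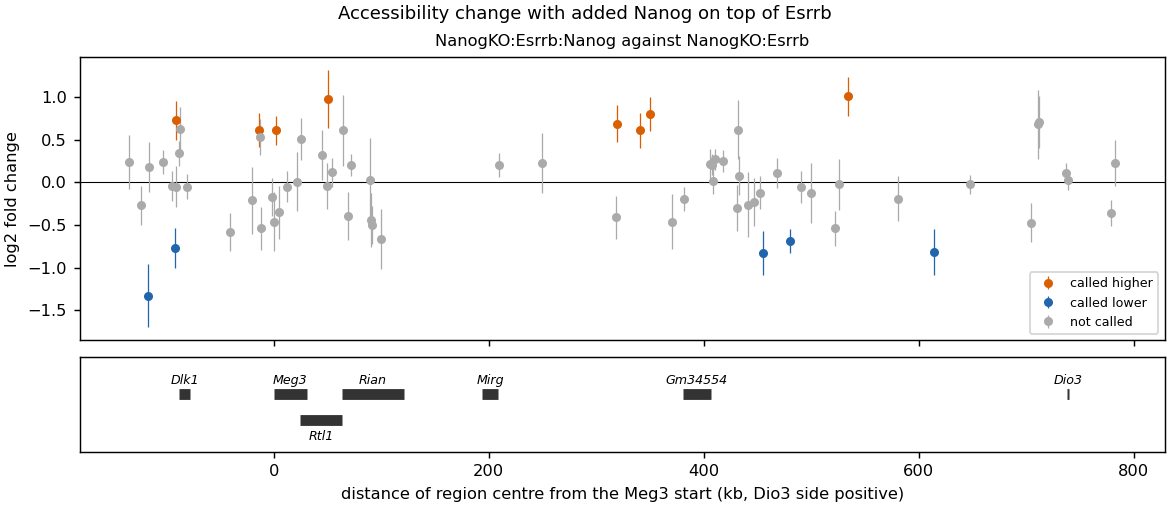
Log2 fold change with its standard error (y axis) of NanogKO:Esrrb:Nanog against NanogKO:Esrrb for the 72 domain regions, by distance of the region centre from the Meg3 start in kb (x axis), with gene spans at the bottom. Calls lay in several parts of the domain, 8 higher and 5 lower. The higher calls at 319.4, 340.3 and 350.3 kb were at regions next to each other.

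The 5 largest of these calls stood at single regions. The region 28910 bp before Dlk1 was lower by -1.33 ± 0.37 in NanogKO:Esrrb:Nanog than in NanogKO:Esrrb, and the region in Gm34719 was higher by 1.01 ± 0.23. The short region beside Mir431 was higher by 0.98 ± 0.34, a call that ended with library totals (0.87), without NanogKO:Esrrb:Nanog replicate 1 (0.56) and without NanogKO:Esrrb replicate 2 (0.76) or 3 (1.00). A region in Gm34667 (chr12:109995877-109996157), with 0.773 ± 0.0523 CPM in NanogKO:Esrrb:Nanog, 1.37 ± 0.413 CPM in NanogKO:Esrrb and 1.89 ± 0.141 CPM in NanogKO (SD, n = 3), was lower by -0.83 ± 0.26. This call ended without NanogKO:Esrrb:Nanog replicate 2 (-0.82) and without NanogKO:Esrrb replicate 3 (-0.61). The region in 3110009F21Rik was lower by -0.82 ± 0.27, a call lost without NanogKO:Esrrb replicate 1 (-0.83) or 3 (-0.74) and without NanogKO:Esrrb:Nanog replicate 1 (-0.64) or 2 (-0.56).

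Before Meg3 and at its start, both groups with Esrrb stood near each other and far under NanogKO. The region 11.5 kb before the Meg3 start differed by -0.54 ± 0.25 between NanogKO:Esrrb:Nanog and NanogKO:Esrrb and the Meg3 start by -0.46 ± 0.35, neither called. At 13.4 kb the difference was 0.62 ± 0.20 and called, with 15.4% of the NanogKO mean in NanogKO:Esrrb:Nanog and 10.1% in NanogKO:Esrrb. That call ended with library totals (0.51), in the 6 libraries alone (0.62), without NanogKO:Esrrb:Nanog replicate 1 (0.46) and without NanogKO:Esrrb replicate 2 (0.62) or 3 (0.54). The region 2.1 kb into Meg3 was higher by 0.61 ± 0.17, and not called without NanogKO:Esrrb:Nanog replicate 2 (0.38). Neither Dlk1 region near the start was called (0.34 ± 0.15 and 0.63 ± 0.25), but without NanogKO:Esrrb:Nanog replicate 3, the lowest library of its group at both, they were called at 0.52 and 0.87. Without that library the most accessible region of the domain was called as well, at 0.31 beside 0.21 ± 0.12. At the Dio3 start the difference was 0.03 ± 0.12.

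The authors deposited a peak list per group, whose file name gives it as an intersection over 3 libraries. Of the 72 regions, 38 overlapped a peak of the NanogKO:Esrrb:Nanog list by at least 1 bp, 38 one of the NanogKO:Esrrb list and 55 one of the NanogKO list. These are 52.8%, 52.8% and 76.4% of the members, where 73.8%, 81.5% and 75.4% of all counted regions overlapped the same lists. In the NanogKO list alone were 26 regions (36.1%, where 10.2% of all regions were), among them the Meg3 start and the region 11.5 kb before it. All 3 lists held 23 (31.9%, where 55.3% of all regions were). Every peak name in the list deposited for NanogKO:Esrrb:Nanog carries the library number of a NanogKO:Esrrb library, so which library its intervals came from cannot be told. The lists and the counts come from the same reads and are not independent.

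Loci elsewhere followed the summed domain across libraries. Compared with it were 17697 protein-coding genes outside it with at least 5 tested regions in or within 50 kb. For each, the log2 of the summed CPM was correlated with that of the domain over the 9 libraries. The 5 most alike were Arrb1 (Pearson r 0.994), Slc2a12 (0.991), Tlk2 (0.989), Ldb3 (0.988) and Fndc4 (0.988). At Arrb1 the geometric means of the summed CPM were 137 in NanogKO:Esrrb:Nanog, 126 in NanogKO:Esrrb and 161 in NanogKO. Of the mean of 372 CPM of the domain in NanogKO, the stretch from Rian to Dio3os held 156 and that between Dlk1 and Meg3 held 46.9. The likeness is thus to the net sum and not to the falls near Meg3. The 9 points fall into 3 groups and share their libraries and scaling, so r describes this likeness and no more.

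Around the domain, 22 neighbouring genes had 335 tested regions outside the domain. Against NanogKO, 91 were called higher and 53 lower in NanogKO:Esrrb:Nanog, and 74 higher and 34 lower in NanogKO:Esrrb, with medians of 0.11 and 0.05. These are 27.2% higher and 15.8% lower in NanogKO:Esrrb:Nanog, where 24.9% and 24.4% of all regions were, and 22.1% and 10.1% in NanogKO:Esrrb, where 20% and 17.0% were. At Ppp2r5c, a phosphatase subunit gene past Dio3, 24 of 53 regions were called higher and 4 lower in NanogKO:Esrrb:Nanog, and 26 higher and 1 lower in NanogKO:Esrrb. At Begain, before Dlk1, 4 of 19 were called higher and 3 lower in NanogKO:Esrrb:Nanog, and 3 higher and 4 lower in NanogKO:Esrrb. These genes, like those named from the lists of imprint genes and partners, were picked after their values were seen.

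Genes known to set, keep or erase imprints were also followed. Of 604 tested regions in or within 50 kb of 20 such genes, 201 were called higher and 100 lower in NanogKO:Esrrb:Nanog, and 158 higher and 84 lower in NanogKO:Esrrb, both against NanogKO, with medians of 0.16 and 0.10. These are 33.3% higher and 16.6% lower in NanogKO:Esrrb:Nanog and 26.2% and 13.9% in NanogKO:Esrrb, beside the same shares over all regions (24.9% and 24.4%, 20% and 17.0%). The genes of the list did not move alike. At Zfp57, which protects methylated imprint control regions, 17 of 22 regions were called higher in NanogKO:Esrrb:Nanog and 16 in NanogKO:Esrrb, and none lower. At Tet1, which oxidises methylated DNA, 23 of 37 were called higher and 0 lower in NanogKO:Esrrb:Nanog, and 19 higher and 1 lower in NanogKO:Esrrb. At Setdb1, a histone H3 lysine methyltransferase, 17 and 20 of 24 were called higher and none lower. More regions were called lower than higher at several others, in either comparison or in both. At Aff3, whose protein binds the methylated control stretch of this domain, 17 of 36 regions were called lower and 3 higher in NanogKO:Esrrb:Nanog, and 20 lower and 0 higher in NanogKO:Esrrb. At Zfp445, which like Zfp57 protects imprints, 7 of 14 were called lower and 2 higher in NanogKO:Esrrb:Nanog, and 8 lower and 2 higher in NanogKO:Esrrb. At Dnmt3a, a DNA methyltransferase, 15 of 46 were called lower and 7 higher in NanogKO:Esrrb:Nanog, and 11 lower and 5 higher in NanogKO:Esrrb. At Dppa3, whose protein guards methylation in the early embryo, 8 of 25 were called lower and 5 higher in NanogKO:Esrrb:Nanog, and 2 lower and 5 higher in NanogKO:Esrrb.

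Partners of the proteins made by the domain, namely NOTCH receptors and ligands and genes of thyroid hormone action, had 263 tested regions at 15 genes. In NanogKO:Esrrb:Nanog 80 were called lower and 45 higher than in NanogKO, and in NanogKO:Esrrb 63 lower and 28 higher, with medians of -0.10 and -0.11. These are 30.4% lower and 17.1% higher in NanogKO:Esrrb:Nanog, where 24.4% and 24.9% of all regions were, and 24.0% and 10.6% in NanogKO:Esrrb, where 17.0% and 20% were. At Thrb, a thyroid hormone receptor, 14 of 24 were called lower and 2 higher in NanogKO:Esrrb:Nanog, and 12 lower and 2 higher in NanogKO:Esrrb. At Notch2, a receptor, 10 of 15 were called lower and 1 higher in NanogKO:Esrrb:Nanog, and 8 lower and 0 higher in NanogKO:Esrrb. The genes of this list did not move alike either. At Dlk2, 7 of 22 were called higher and 2 lower in NanogKO:Esrrb:Nanog, and 1 higher and 1 lower in NanogKO:Esrrb. At Jag2, 7 of 30 were called higher and 3 lower in NanogKO:Esrrb:Nanog, and 4 higher and 5 lower in NanogKO:Esrrb. Between NanogKO:Esrrb:Nanog and NanogKO:Esrrb, 40 of the neighbours' regions, 76 of those at imprint genes and 45 of those at partners were called higher, and 30, 46 and 25 lower. The higher shares are 11.9%, 12.6% and 17.1%, where 12.6% of all regions were, and the lower shares 8.96%, 7.62% and 9.51%, where 12.0% were.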

How the data were processed

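Accessibility was measured by ATAC-seq in 9 libraries of 3 groups. The deposited table holds raw counts of reads per region, and the 3 deposited peak lists hold a score per peak, the authors' own value, which was not used beyond the peak positions. Merging the lists gave the 157497 counted regions exactly, so sites outside them were not counted. The submitters' processing notes name mm10 as the build. They list, with no role, MACS2 2.2.0 and deepTools 4.4.0, Bowtie2 and cutadapt, bedtools 2.26.0, SAMtools 1.4.1 and bcl2fastq 2.19.1. The counting tool, the removal of duplicates and any shift of reads for the transposase are not given in the sources used here.

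Counts were fitted with edgeR 4.0.16 in R 4.3.3 as group means of all 9 libraries, with TMM factors and filterByExpr (157439 regions), which left 6 residual degrees of freedom. Calls use the quasi-likelihood F test with Benjamini-Hochberg adjustment at 0.05. CPM are scaled to TMM effective library sizes, and each standard error is the fitted log2 fold change divided by the root of its F value. DESeq2 1.42.0, library totals without TMM, no filter, the replicate block, each library left out, the 6 libraries compared alone, and the domain without its 50 kb flanks were alternatives. Gene spans and promoters came from RefSeq GRCm38.p6, and coordinates count from 1. The members and the gene lists were chosen with earlier results of these data known. Named regions were those at or within 1 kb of the starts of Dlk1, Rtl1, Dio3, Meg3, Rian and Mirg, the highest CPM of the domain and within 20 kb of Meg3, and the 5 largest called changes per comparison.

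Deviations of same-numbered libraries from their group means correlated at r = 0.117 to 0.152 (NanogKO:Esrrb with NanogKO), r = 0.105 to 0.146 (NanogKO:Esrrb:Nanog with NanogKO:Esrrb) and r = 0.0022 to 0.136 (NanogKO:Esrrb:Nanog with NanogKO). The numbers were taken to pair the libraries of the first and the second of these comparisons. This rests on the correlations alone, because no label gives a common culture or date. The main fit, of group means, left this pairing out, and the replicate block was run only as an alternative. Libraries of a group were not copies of each other (chi-square per region 3.55 to 9.49).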

Additional observations from a re-analysis of the deposited data

How the results depend on the processing

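The domain counts, medians and sums stayed within 1.5 times (counts) or the spread of libraries (medians and sums) in 122 of their values under the alternatives and moved further in 22. With library totals in place of TMM, the median log2 fold change of NanogKO:Esrrb:Nanog against NanogKO was -0.64 in place of -0.55 and the summed domain -0.38 in place of -0.28. Against NanogKO:Esrrb the same setting gave 3 higher and 8 lower calls, a median of -0.11 and a sum of -0.01 in place of 8, 5, 0.00 and 0.09. That setting shifts all regions of a library alike and gave all regions a median of -0.10 against NanogKO and -0.11 against NanogKO:Esrrb. Without the 50 kb flanks, which leaves fewer regions, NanogKO:Esrrb:Nanog against NanogKO had a median of -0.47 and a sum of -0.21, NanogKO:Esrrb against NanogKO a median of -0.44 and a sum of -0.31 in place of -0.59 and -0.38, and NanogKO:Esrrb:Nanog against NanogKO:Esrrb 3 lower calls.

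Leaving out each library in turn gave, for NanogKO:Esrrb:Nanog against NanogKO, 8 to 11 higher and 35 to 39 lower calls, medians of -0.61 to -0.50 and sums of -0.31 to -0.23. For NanogKO:Esrrb against NanogKO it gave 6 to 9 higher and 34 to 37 lower calls, medians of -0.72 to -0.56 and sums of -0.39 to -0.35. For NanogKO:Esrrb:Nanog against NanogKO:Esrrb it gave 4 to 12 higher and 2 to 6 lower calls, medians of -0.04 to 0.07 and sums of 0.06 to 0.15. The cause of these moves was not tested.

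With the replicate block, calls numbered 11 higher and 44 lower (NanogKO:Esrrb:Nanog against NanogKO), 10 and 38 (NanogKO:Esrrb against NanogKO), and 9 and 6 (NanogKO:Esrrb:Nanog against NanogKO:Esrrb). Among the named regions, the block changed no call but that of the second Dlk1 region. No named fold change that was called reversed its sign under any alternative run. With a median of 44.5 to 131.5 counts per library, changes of short, low regions were the least precise, with standard errors of up to 0.49.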
